A study of Mus musculus with 2 samples.

Results

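Zinc enters and leaves cells and organelles through the transporter families Slc30 and Slc39, and inside the cell much of it is held by metallothioneins. The 10 mouse genes described here are 5 Slc30 transporters (Slc30a1, Slc30a3, Slc30a4, Slc30a9 and Slc30a10), 2 Slc39 transporters (Slc39a1 and Slc39a10) and 3 metallothioneins (Mt1, Mt2 and Mt3). They were taken by symbol and are 10 of the 55536 annotated genes measured, with 32 of the 141767 annotated transcripts.

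The study sequenced polyadenylated RNA of the hippocampus from adult mice aged 6 months, given as strain B6NCrl and as C57BL/6, with no treatment or genotype named. The labels give the tissue as the layer of hippocampus. There is 1 group of 2 libraries, labelled biological replicates 1 and 2, each made from 20 ng of RNA with Nextera tagmentation. The libraries come from separate tissue samples with 1 shared donor identifier, and the labels do not say whether these are separate animals, so the spread between them may be technical. With no second condition, levels are a description, and the only test compares replicate 1 with replicate 2.

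The libraries held 38921662 and 39499350 expected reads in genes. The description says male and the sex field says not collected, while 4 Y-linked genes together held 1 read in replicate 1 and 0 in replicate 2. Marker genes of glutamatergic neurons and of dentate granule neurons, 5 of each, all reached 1 TPM in both libraries. Replicate 1 stood apart by its choroid plexus genes, the secretory lining of the ventricles: 8 of 8 markers were called higher there, and they summed to 15265 TPM, against 130.6 TPM in replicate 2. Of 6 markers of the meninges 3 were called, with Igf2 higher and Ptgds and Slc6a13 lower in replicate 1, and they summed to 2003.1 and 4653.5 TPM. Over all genes tested 2.41% were called. TPM is a read count scaled for transcript length and for depth. In whole tissue, fewer cells of a type and less RNA per cell cannot be told apart.

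Slc30 proteins carry zinc out of the cytosol, across the plasma membrane or into vesicles and organelles, and Slc39 proteins carry it into the cytosol. Slc30a3 fills the synaptic vesicles of glutamatergic neurons with zinc, which the mossy fibres of the hippocampus hold in large amounts. Metallothioneins are short proteins whose cysteines bind zinc and copper, and the zinc-sensing factor Mtf1 raises transcription of Mt1 and Mt2 through metal response elements in their promoters. Mt3 is the form typical of brain.

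The 3 metallothionein genes are shown first by their coding sequences, since their cysteine codons (capitals, TGC or TGT) are the feature they share. The sequences are those of the dominant transcripts Mt1-201, Mt2-201 and Mt3-201 in the GENCODE M21 annotation, each in 3 coding exons on the plus strand of chromosome 8, from start codon to last codon.
Mt1: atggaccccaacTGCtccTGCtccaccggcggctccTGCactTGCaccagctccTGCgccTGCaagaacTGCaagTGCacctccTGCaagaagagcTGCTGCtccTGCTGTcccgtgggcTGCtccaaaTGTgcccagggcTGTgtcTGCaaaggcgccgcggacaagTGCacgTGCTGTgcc
Mt2: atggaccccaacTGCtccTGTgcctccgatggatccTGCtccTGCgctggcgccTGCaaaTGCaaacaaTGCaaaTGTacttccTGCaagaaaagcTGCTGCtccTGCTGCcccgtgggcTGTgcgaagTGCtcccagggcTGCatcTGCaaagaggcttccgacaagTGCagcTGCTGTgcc
Mt3: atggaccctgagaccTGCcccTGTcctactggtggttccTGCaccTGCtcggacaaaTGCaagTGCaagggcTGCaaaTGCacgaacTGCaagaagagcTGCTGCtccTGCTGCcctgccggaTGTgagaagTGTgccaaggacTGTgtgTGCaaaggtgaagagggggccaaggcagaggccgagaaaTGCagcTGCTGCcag
Each holds 20 cysteine codons, 16 TGC and 4 TGT. That is 32.8% of the 61 codons of Mt1 and of Mt2 and 29.4% of the 68 codons of Mt3. In a global alignment Mt1 and Mt2 had the same base at 145 of 183 positions (79.2%), Mt1 and Mt3 at 65.7% and Mt2 and Mt3 at 67.2%. The longest run of bases shared by any 2 of the whole transcripts was 27, so the genes are paralogs whose transcripts share only short stretches.

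The genes lie in 1 cluster with Mt4, in the order Mt4, Mt3, Mt2, Mt1 over 43.1 kb, all on the plus strand (mm10). Mt3 is at chr8:94152607-94154146, Mt2 at chr8:94172664-94173568 and Mt1 at chr8:94179082-94180327. The gap between Mt3 and Mt2 is 18.5 kb and that between Mt2 and Mt1 is 5.5 kb. The 250 bases before each start, from RefSeq on GRCm38.p6, are printed because the neighbours differ there in matches to the core of the metal response element. Capitals mark every match to TGCACNC or TGCGCNC on either strand, and a match on the minus strand reads here as its reverse complement.
Mt3 promoter, chr8:94152357-94152606: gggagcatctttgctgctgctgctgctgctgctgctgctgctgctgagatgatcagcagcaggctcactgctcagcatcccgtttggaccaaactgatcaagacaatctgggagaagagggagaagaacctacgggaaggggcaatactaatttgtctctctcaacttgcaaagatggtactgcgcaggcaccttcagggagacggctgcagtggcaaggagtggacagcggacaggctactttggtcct
Mt2 promoter, chr8:94172368-94172617: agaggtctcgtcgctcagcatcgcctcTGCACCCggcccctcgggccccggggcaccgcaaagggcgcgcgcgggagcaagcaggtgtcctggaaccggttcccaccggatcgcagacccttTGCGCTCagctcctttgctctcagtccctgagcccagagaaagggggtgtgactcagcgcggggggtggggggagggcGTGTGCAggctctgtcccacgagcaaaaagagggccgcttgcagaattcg
Mt1 promoter, chr8:94178839-94179088: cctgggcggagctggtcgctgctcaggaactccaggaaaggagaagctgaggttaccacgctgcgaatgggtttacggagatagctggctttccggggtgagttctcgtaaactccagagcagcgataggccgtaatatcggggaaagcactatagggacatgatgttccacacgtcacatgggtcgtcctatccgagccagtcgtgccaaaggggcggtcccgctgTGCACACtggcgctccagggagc
The Mt2 window held 3 cores, the Mt1 window 1, at 23 to 17 bases before the start, and the Mt3 window held no match. A match is a description of letters and not a measured binding site. The RefSeq start is that of GENCODE for Mt3, and for Mt1 and Mt2 it is another base nearby.

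Metallothionein transcripts were by far the most abundant of the 10 genes. Mt3 was measured at 1212 TPM in replicate 1 and 1508.7 TPM in replicate 2, a mean of 1360.3 ± 209.8 TPM (SD, n = 2), rank 100 of all genes. Mt1 was at 1188.8 and 923.99 TPM (1056.4 ± 187.3, SD, n = 2), rank 137. Mt2 was at 358.31 and 356.17 TPM (357.2 ± 1.51, SD, n = 2), rank 424. By TPM both libraries thus had the order Mt3, Mt1, Mt2 with no overlap of ranges, and Mt2 was the most even of the 3. Mt3 and Mt1 were nearly equal in replicate 1, where the order by expected reads was the reverse. Mt4, whose product is known from stratified epithelium, had 0 and 1 reads, where the count of 0 in replicate 1 allows up to 3 reads, or 0.0771 CPM (reads scaled to the depth of the library).

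**Figure D1:**
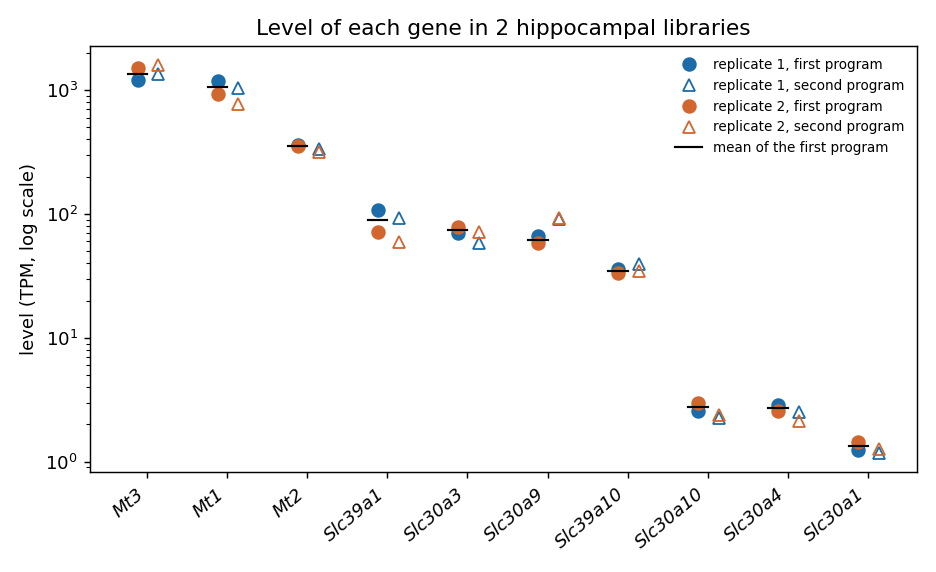
Level of each gene in TPM on a log axis, with filled circles for the first quantification program, open triangles for the second, 1 colour per replicate, and a bar at the mean of the first program. In the first program the metallothioneins lie between 356.17 and 1508.7 TPM, 4 transporters between 33.3 and 106.92 TPM, and Slc30a10, Slc30a4 and Slc30a1 below 3 TPM.

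The summed level of Mt1, Mt2 and Mt3 in replicates 1 and 2 was 2759.1 and 2788.8 TPM (2774 ± 21.01, SD, n = 2), while the shares within the sum were less even. Mt3 took 43.9% and 54.1% of it (49.0 ± 7.19%, SD, n = 2) and Mt1 took 43.1% and 33.1% (38.1 ± 7.04%, SD, n = 2). Mt2 took 13.0% and 12.8%. Mt3 and Mt1 were therefore at nearly equal levels in replicate 1, with a TPM ratio of 1.02, and apart in replicate 2, with a ratio of 1.63. The files of the second program gave ratios of 1.295 and 2.05, so by TPM Mt3 was above Mt1 in both programs, by different amounts. By expected reads the order turned in replicate 1, at a ratio of 0.984, and in replicate 2 the ratio was 1.58.

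**Figure D2:**
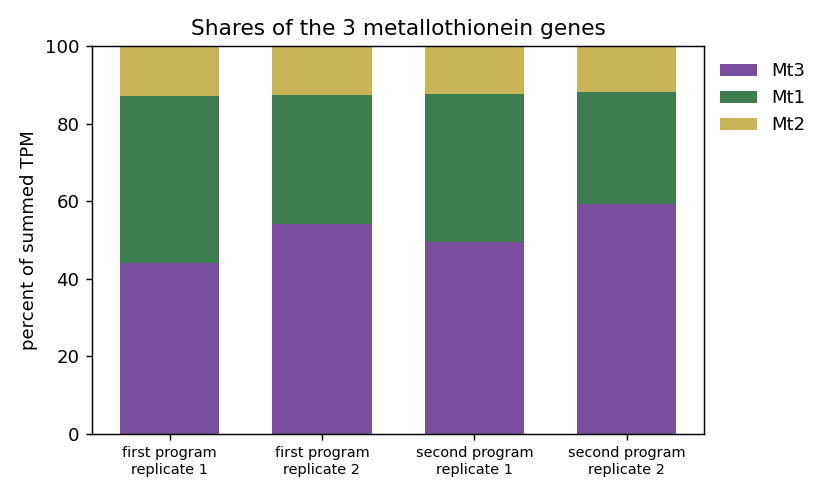
Percent of the summed TPM of Mt1, Mt2 and Mt3 taken by each gene, for each program and replicate. The Mt3 block is larger in replicate 2 (54.1% in the first program) than in replicate 1 (43.9%), the Mt1 block is smaller, and Mt2 stays between 11.7% and 13.0%.

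Between the libraries, Mt3 had 14184 and 18458 expected reads and Mt1 had 14421 and 11717, so the 2 genes differed in opposite directions. After scaling for depth the log2 ratio of replicate 1 to replicate 2 was -0.37 for Mt3 (95% counting interval -0.40 to -0.34, adjusted p 2.14e-117 by the exact binomial test). For Mt1 it was 0.31 (0.27 to 0.34, adjusted p 2.83e-64, exact test). Mt2, with 3930.7 and 4094.8 reads, had a log2 ratio of -0.05 and did not pass (adjusted p 0.185, exact test). These p-values cover counting error only. Among all genes tested, 18.0% lay at least as far apart as Mt3 and 24.3% at least as far as Mt1. Of 8 astrocyte markers, 0 were called, 6 were higher in replicate 1 at an adjusted p under 0.05 (exact test), Aldoc was lower and Aqp4 did not pass. Their median log2 ratio was 0.24 and their summed levels were 2181.5 and 2104.5 TPM. The 5 glutamatergic neuron markers were all lower in replicate 1 at that threshold, again with 0 called, with a median of -0.27 and sums of 1551.3 and 1852.1 TPM. Of all genes tested, 47.2% passed that threshold in either direction and 2.41% were called. The part of these cell types, and of choroid plexus, in the Mt1 and Mt3 ratios was not tested.

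Reads of each metallothionein gene fell almost wholly on 1 transcript. Mt1-201 took 99.9% of the TPM of Mt1 in both libraries, Mt2-201 took 100% of Mt2, and Mt3-201 took 99.0% and 98.7% of Mt3. The remaining Mt3 signal lay mainly on Mt3-202, a coding transcript of 43 amino acids, at 11.05 and 18.52 TPM. In the second program the same 3 transcripts held at least 98.37% in each library.

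Among the transporters, Slc30a3 was the most abundant Slc30 gene by TPM of the first program. This vesicular zinc transporter (chr5:31086106-31108237, minus strand) was measured at 70.31 TPM in replicate 1 and 79.05 TPM in replicate 2 (74.7 ± 6.18, SD, n = 2). It took 40.4 ± 3.68% (SD, n = 2) of the summed TPM of the 10 Slc30 genes. Its reads were 4100 and 4774, a log2 ratio of -0.21 (adjusted p 4.16e-11, exact binomial test), and 38.6% of genes tested lay at least as far apart. The vesicular glutamate transporter Slc17a7, which marks the same kind of vesicle, was at 41.68 and 54.4 TPM, with a log2 ratio of -0.40. Both genes were thus lower in replicate 1, as were the other 4 glutamatergic markers. The 5 markers of dentate granule neurons, whose axons are the mossy fibres, went both ways: Calb1 (log2 ratio -0.31) and Prox1 (-0.18) were lower in replicate 1, Stxbp6 (0.37) was higher, and C1ql2 and Dsp did not pass (median -0.03, sums 233.1 and 253.9 TPM). The part of either cell type in the Slc30a3 ratio was not tested.

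Slc30a9, a transporter of mitochondria (chr5:67306955-67358443, plus strand), followed at 65.89 and 58.15 TPM (62.0 ± 5.47, SD, n = 2), or 33.5 ± 2.68% (SD, n = 2) of Slc30 TPM. Its place depended on the unit and on the program. By share of expected reads, which grows with transcript length, Slc30a9 held 45.8% of the family and Slc30a3 27.6%, and the TPM of the second program also put Slc30a9 first, at 46.9% against 32.9%. Slc30a9 reads were nearly equal, 7258 and 7466, with a log2 ratio of -0.03 (adjusted p 0.251, exact test), although its TPM was higher in replicate 1. The mean effective length given for the gene was 3614 bases in replicate 1 and 4136 bases in replicate 2, and the 425-base transcript Slc30a9-208 took 17.3% of the TPM in replicate 1 and 4.18% in replicate 2.

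The other 3 Slc30 genes were low. Slc30a10, known chiefly as a manganese exporter (chr1:185454848-185468762, plus strand), was at 2.56 and 2.96 TPM. Slc30a4, a vesicular zinc transporter (chr2:122681233-122702663, minus strand), was at 2.88 and 2.58 TPM. Slc30a1, the zinc exporter of the plasma membrane (chr1:191906767-191913247, plus strand), was lowest, at 1.25 and 1.44 TPM, from 193.6 and 227.6 reads. Slc30a10 and Slc30a4 swapped places between the libraries, so their order is not resolved, and both exceeded Slc30a1 in each library. Slc30a10, Slc30a4 and Slc30a1 took 1.49%, 1.48% and 0.728% of Slc30 TPM. Of the 3, Slc30a10 passed at a log2 ratio of -0.23 (adjusted p 0.0326), while Slc30a1 at -0.23 (adjusted p 0.197) and Slc30a4 at 0.14 (adjusted p 0.249) did not, all by the exact binomial test. In the second program Slc30a10 did not pass either, at -0.17 (adjusted p 0.0591, exact test).

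Slc39a1, an importer of the plasma membrane (chr3:90248172-90253612, plus strand), was the highest of the 7 transporters by mean TPM of the first program, and its 2 libraries had the largest log2 ratio of the 7. The second program put Slc30a9 above it, at 92.2 against 76.1 TPM, and Slc30a9 also had more expected reads in both libraries. It was at 106.92 TPM in replicate 1 and 71.5 TPM in replicate 2 (89.2 ± 25.0, SD, n = 2). Its range overlapped that of Slc30a3, which was above it in replicate 2, so these neighbours in the order do not differ beyond their spread. Reads were 7211 and 4934, 1.47-fold higher in replicate 1, a log2 ratio of 0.55 (0.50 to 0.61, adjusted p 4.48e-96, exact binomial test). Among all genes tested, 8.59% lay at least as far apart. Replicate 1 is also the library with the higher choroid plexus markers, at 15265 against 130.6 TPM in sum. Of 5 ependymal markers 4 were higher there at an adjusted p under 0.05 (exact test) and 1, Mia, was called (median log2 ratio 0.47 over the 5). Over all genes tested 47.2% passed that threshold in either direction and 2.41% were called. The part of either cell type in the Slc39a1 ratio was not tested.

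Slc39a10, also an importer of the plasma membrane (chr1:46807544-46892852, minus strand), was at 35.83 and 33.3 TPM (34.6 ± 1.79, SD, n = 2). Its reads were 4516 and 3707, a log2 ratio of 0.29 (adjusted p 7.14e-19, exact binomial test), while its TPM differed by only 0.11 on the log2 scale. The effective length was 4136 bases in replicate 1 and 3586 in replicate 2. Of the 14 Slc39 genes, Slc39a1 took 25.3 ± 4.34% and Slc39a10 9.92 ± 0.597% of TPM (SD, n = 2). The 7 transporters together were at 285.64 and 248.98 TPM, against 2759.1 and 2788.8 TPM for the 3 metallothioneins.

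Over all 14078 genes with a mean of at least 50 reads, 339 were called between the libraries (adjusted p under 0.05 and a ratio of at least 2-fold either way), which is 2.41%, and 278 of these were higher in replicate 1. Of the 10 zinc genes, all 10 were tested and 0 were called by the exact binomial test. At an adjusted p under 0.05 with no limit on size, 6 of the 10 passed, as 47.2% of all tested genes did, and the same 6 had an unadjusted p under 0.05. Of these 6, Slc39a1, Mt1 and Slc39a10 were higher in replicate 1, and Mt3, Slc30a3 and Slc30a10 were higher in replicate 2. The log2 ratios ran from -0.37 to 0.55 with a median of -0.04. Their median size was 0.23, against 0.16 over all genes tested.

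**Figure D3:**
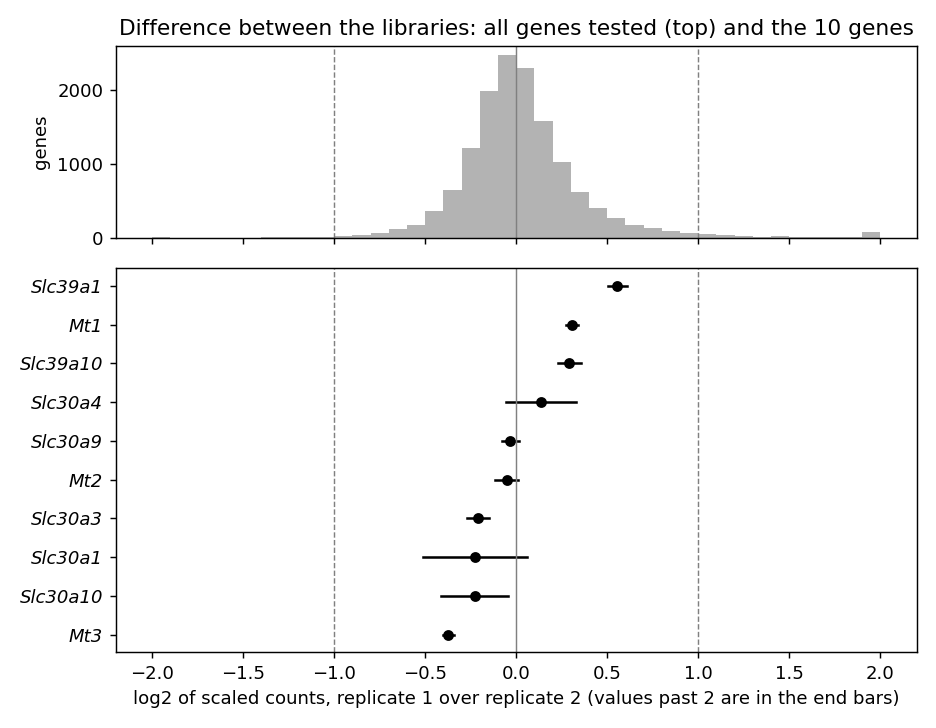
Upper panel, number of tested genes by log2 ratio of replicate 1 to replicate 2; lower panel, the ratio of each of the 10 genes with its 95% counting interval, and dashed lines at a 2-fold difference. All 10 genes lie inside the dashed lines, from -0.37 (Mt3) to 0.55 (Slc39a1).

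Signal was spread over more than 1 transcript in Slc30a9, Slc39a10 and, in the second program, Slc30a3, and here the 2 programs differed. For Slc30a9 the first program put 43.5% and 52.0% of TPM on Slc30a9-204, the coding transcript of 567 amino acids. It put 29.8% and 33.2% on Slc30a9-207, which is annotated as a target of nonsense-mediated decay, the pathway that removes RNA with early stop codons. The second program put 13.7% and 10.7% on Slc30a9-204 and 35.6% and 37.0% on Slc30a9-207. It placed a further 15.9% and 19.4% on Slc30a9-205, also annotated as a decay target, which the first program listed at 0. The incomplete coding transcript Slc30a9-208 took 17.3% and 4.18% in the first program, from 95.42 and 21.49 reads, and 28.5% and 26.6% in the second. The share of Slc30a9 RNA that encodes the full protein is thus not settled by these files: complete coding transcripts held 50.9 ± 5.61% by the first program but 13.1 ± 2.40% by the second (SD, n = 2).

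The coding transcripts Slc30a9-204 and Slc30a9-201 differ by exon 3 of Slc30a9-204, a 60-base exon that Slc30a9-201 skips, which keeps the reading frame (567 against 547 amino acids). Slc30a9-207 and Slc30a9-205 lack both exon 3 and exon 4, which has 100 bases and does not keep the frame. They differ from Slc30a9-204 elsewhere too. Slc30a9-207 has a first exon of 629 bases against 243 and a last exon of 1255 bases against 3912. Slc30a9-205 has 8 exons against 18. Which of these differences goes with the decay annotation was not tested. The exons are shown since they are among the differences between these transcripts, in lower case with no part marked.
Slc30a9 exon 3, chr5:67324674-67324733, plus strand: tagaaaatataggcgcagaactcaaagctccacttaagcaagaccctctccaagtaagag
Slc30a9 exon 4, chr5:67326853-67326952, plus strand: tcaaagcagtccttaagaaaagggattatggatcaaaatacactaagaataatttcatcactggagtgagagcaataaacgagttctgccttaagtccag
Between the 2 complete coding transcripts alone the programs gave the same value. Slc30a9-204 took 93.6 ± 1.47% of the summed TPM of Slc30a9-204 and Slc30a9-201 by the first program and 93.6 ± 1.04% by the second (SD, n = 2). That sum leaves out Slc30a9-207 and Slc30a9-205, which also lack exon 3. Their mean shares of Slc30a9 TPM were 31.5% and 0% by the first program and 36.3% and 17.6% by the second. The incomplete Slc30a9-208, which was not checked for exon 3, is left out as well. Its mean share was 10.7% by the first program and 27.5% by the second. The use of exon 3 over all Slc30a9 transcripts is thus not settled by these values.

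**Figure D4:**
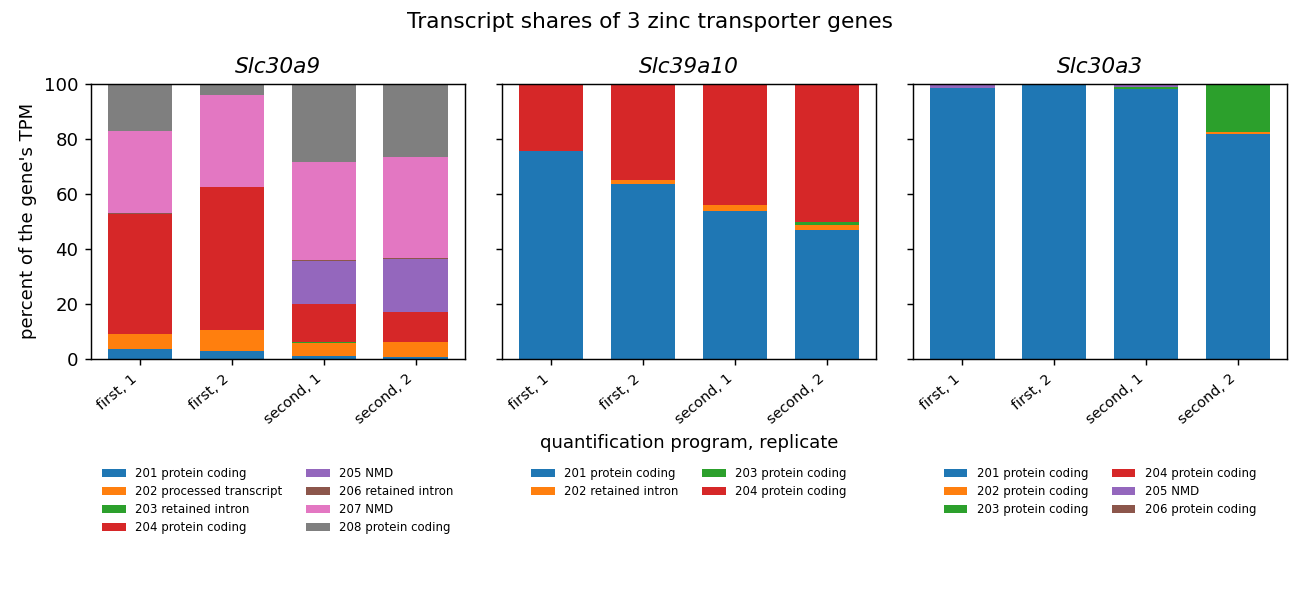
Percent of the TPM of Slc30a9, Slc39a10 and Slc30a3 taken by each annotated transcript, by program (first, second) and replicate (1, 2), with NMD for nonsense-mediated decay. Slc30a9-204 shrinks from 43.5% and 52.0% in the first program to 13.7% and 10.7% in the second, while Slc30a3-201 holds at least 81.8% in each bar.

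For Slc39a10, the full coding transcript Slc39a10-201 (833 amino acids) took 75.4% and 63.6% of TPM by the first program. The second program gave it 53.9% and 46.8%. Most of the rest lay on Slc39a10-204, an incomplete coding model of 2 exons that starts 38.8 kb upstream. This model of 565 bases rests on few reads, by the first program 110.9 and 153.4 against 4405 and 3520 for Slc39a10-201. By the second program it had 371.6 and 401.9 reads against 5580.5 and 4534.7. In replicate 2 of the second program it exceeded Slc39a10-201, at 50.3%. For Slc30a3, Slc30a3-201 (388 amino acids) held 98.5% and 99.8% by the first program. The second gave it 97.96% and 81.8%. The difference in replicate 2 was Slc30a3-203, an incomplete model that begins at the far upstream start, at 12.45 TPM in the second program and listed at 0 in the first. The dominant transcript was the same in both programs for 9 of the 10 genes, Slc30a9 being the exception. Of the 32 transcripts, 8 were listed at 0 in both libraries by the first program and 1 by the second.

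For 4 of the genes an annotated gene on the opposite strand shares exon bases, and the use of strand in counting is not given in the sources used here, so reads there cannot be told apart. Slc30a10 shares 533 bases with Gm2061, which had 62.3 and 44.49 reads. Slc30a1 shares 468 bases with 1700034H15Rik (25.45 and 18.39 reads), Mt2 432 bases with Gm45774 (48.33 and 36.24 reads) and Slc30a4 130 bases with 4930417H01Rik (6 and 3 reads). The partner counts were small beside those of Mt2 and largest, relative to the zinc gene, for Slc30a10 and Slc30a1.

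The core of the metal response element, TGCACNC or TGCGCNC on either strand, was searched in the 250 bases before each RefSeq start. It was found in 6 of the 12 windows of the 10 genes, which belong to 6 genes, beside 21.4% of 32851 windows of the same length over all genes. These windows hold no information on binding. The share over all windows was not matched for base composition, and G and C made up 35.6% to 82.8% of the bases of the 12 windows. Slc30a10, like Mt2, had 3 matches, 2 of which overlap each other on opposite strands, and 1.26% of all windows had at least 3. Slc30a4 had 2, and Mt1, Slc30a1 and Slc30a3 had 1 each. The match of Slc30a3 lay at its upstream start (window chr5:31108245-31108494). The window of the start next to Slc30a3-201 (chr5:31093528-31093777), the transcript with nearly all reads, had none. The windows of Slc39a10 lie at 2 RefSeq starts, chr1:46925777-46926026, upstream of the whole GENCODE gene, and chr1:46853619-46853868, within the first exon of Slc39a10-201. No match was found for Slc30a9, Slc39a1, Slc39a10 or Mt3, which says only that these letters are not in those windows. In these windows of 250 bases Mt1 and Slc30a1 had 1 match each, at mean levels of 1056.4 and 1.35 TPM. In a longer window that also took in bases after the start, Mt1 had 3 matches and Slc30a1 had 2. Whether the number of matches goes with the level of a gene was not tested.

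The other 18 genes of the 3 families were mostly below the most abundant transporters, with a median of 8.01 TPM, and 13 of them reached 1 TPM in both libraries. The highest were Slc39a7, which releases zinc from the endoplasmic reticulum and Golgi (55.3 ± 1.61 TPM), the importer Slc39a6 (48.7 ± 0.481 TPM) and the brain-enriched importer Slc39a12 (44.0 ± 6.30 TPM; SD, n = 2). The lowest by mean TPM was Slc30a8, the zinc transporter of insulin granules, at 0.04 and 0.02 TPM from 2 and 1 reads. Of 13 tested, 1 was called, Slc39a4, the intestinal zinc importer, at 383 and 68 reads or 7.08 and 1.03 TPM. Its log2 ratio was 2.49 (adjusted p 3.86e-53, exact binomial test), in the direction of the choroid plexus markers, whose part in it was not tested. At an adjusted p under 0.05 alone 7 of the 13 passed, beside 47.2% of all genes tested, of which 2.41% were called. The median log2 ratio of all 13 was 0.10.

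A list of 12 genes for zinc sensing, vesicle loading and zinc-sensitive receptors gave 11 tested and 0 called, with 6 at an adjusted p under 0.05 by the exact binomial test and also 6 at an unadjusted p under 0.05. The shares over all genes tested were 2.41% called and 47.2% at that adjusted p. Of the 11 tested, only Ap3m2, at a log2 ratio of 0.21, was higher in replicate 1, and the median was -0.09. The highest were Grin1, the obligatory NMDA receptor subunit (89.8 ± 13.4 TPM), Ap3b2, a subunit of the neuronal adaptor complex that sorts Slc30a3 to synaptic vesicles (53.6 ± 2.88 TPM), and Slc17a7 (48.0 ± 8.99 TPM; SD, n = 2). Gpr39, a zinc-sensing receptor of the cell surface, had 3.26 and 1.66 reads. Mtf1, the factor that binds the metal response element, was present at 11.92 and 14.25 TPM (13.1 ± 1.65, SD, n = 2), below the metallothioneins and above Slc30a1.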

How the data were processed

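Polyadenylated RNA was measured in 2 libraries of 1 group, with deposited tables made on mm10 and M21, according to the text files that came with them. Tables of 2 quantification programs were used, names and versions of which were not given in the sources used here. The first has RSEM's columns and the second kallisto's, per the file headers. The deposited tables give the expected count (estimated reads, not always whole), the TPM and the FPKM, the last 2 scaled by the authors for length and depth.

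Transcripts were joined to genes by identifier, and values of the second program were summed per gene. Rows that name no gene (26345, with 9 and 6.49 reads, or 2.31e-05% and 1.64e-05%) were left out. Expected counts were rounded and library sizes scaled by TMM (edgeR 4.0.16, R 4.3.3; factors 1.005 and 0.995). Genes with a mean count of at least 50 were set against each other in replicates 1 and 2 with an exact binomial test (two-sided, conditional on the gene's total) and Benjamini-Hochberg adjustment over all 14078, in Python 3.11.15 with scipy 1.17.1. A call needed a log2 ratio of 1 or more in size (prior count 0.5) beside an adjusted p under 0.05. Intervals and the limit for a count of 0 cover counting error only, since without molecular identifiers PCR copies count as separate reads. The coefficient of variation between the libraries beyond counting error (edgeR) was 16.6% over 16640 genes. With 1 shared donor identifier it may be technical rather than biological. The test was run on simulated data that held counting error only, so that run says nothing on spread between libraries beyond counting.

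The text names all 10 genes and, of 2 wider zinc lists, the 3 highest, the lowest and every called gene. Mt4, Mtf1 and Ap3m2 were added after their values were seen. The members and lists were chosen with earlier results of these data known. A planned protein comparison was replaced, after the files were seen, by coding sequences from the M21 transcripts, and promoters matched RefSeq (GRCm38.p6) for all 10 genes. Alternatives tried were other scalings, count filters, prior count and units, the second program, coding transcripts alone, a longer promoter window and leaving out each library.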

Additional observations from a re-analysis of the deposited data

How the results depend on the processing

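The 10 genes were all tested and 0 were called under every setting run. Of 40 alternative log2 ratios, 39 kept their direction and side of the threshold and 0 reversed; that of Slc30a10 became -0.17 (adjusted p 0.0591, exact binomial test) in the second program. Of the 10 genes, 6 had an adjusted p under 0.05, and 5 did with no filter on low counts and in the second program. The count of genes called over the whole table, 339 of 14078, was 736 of 17300 with a mean count of at least 10 and 909 of 26748 with no filter, where more genes were tested. Other scalings gave 336 and 338, a prior count of 2 gave 325, and the second program gave 411, of which 278 were shared. Shares within a family moved with the unit and the program: by expected counts Slc30a3 took 27.6% and Slc30a9 45.8% of Slc30 and Mt2 12.02% of the metallothioneins, and by the TPM of the second program 32.9%, 46.9% and 12.1%. Genes with a core in the promoter window rose from 6 to 7 when 50 bases after the start were added, as the share of all windows rose from 21.4% to 25.7%. The gene gained was Mt3, with 1 match, and the Mt1 count rose from 1 to 3. Leaving out each library in turn leaves that of the other, which is printed for each gene. Slc30a1, Slc30a4 and Slc30a10, with 193.6 to 522.5 reads, have the widest counting intervals. With 2 libraries and 1 group, no paired analysis was possible because the series holds no second group, and outliers could not be tested.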
